A study of Caenorhabditis elegans with 2 samples.

Results

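The 10 genes described here encode cytoplasmic intermediate filament chains of Caenorhabditis elegans, namely ifa-1, ifa-2, ifa-4, ifb-1, ifb-2, ifc-1, ifc-2, ifd-1, ifd-2 and ifp-1. They were taken by name from the 19973 nuclear protein-coding genes of the annotation, in which ifa-2 stands under the name mua-6 with a product called ifa-2. A region belonged to a gene when its summit lay in the gene body or within 2000 bp of a transcription start site (TSS) of that gene. Under this rule the 10 genes held 20 regions of the list made from both replicates pooled, 31 of replicate 1, 29 of replicate 2 and 1 of the thresholded list.

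The libraries came from chromatin immunoprecipitation sequencing (ChIP-seq) of eGFP-tagged tlp-1, a C2H2 zinc finger protein, in 2 biological replicates of whole L1 larvae of mixed sex. The strain, OP321, carries the insertion wgIs321 with the tagged gene in an unc-119(tm4063) mutant background, and both replicates share this genotype, so that no groups could be compared. Whole animals were used, and a region therefore does not show in which cells the protein sat. The tagged gene tlp-1 itself had 0 regions in any of the lists under the same rule. Read counts are not in the lists and the depth is unknown. The signal given for each region is the authors' value, has no stated scale and is comparable within a list only. Ranks are by descending signal among nuclear regions, of which the pooled list held 11608, the thresholded list 303, replicate 1 28158 and replicate 2 23953. A rank percentile is the rank as a share of these, so that a low percentile is a high signal.

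Intermediate filaments are rope-like polymers of coiled-coil chains that give cells mechanical strength. In the worm intestine, chains of the B, C, D and P types, IFB-2, IFC-1, IFC-2, IFD-1, IFD-2 and IFP-1, form the endotube, a dense sheath under the apical brush border that surrounds the lumen. The A-type chains pair with IFB-1 in other tissues, among them the epidermis, where such filaments are part of the fibrous organelles that anchor muscle to cuticle, and the pharynx. The sequence WGATAR, with A or T first and A or G last, is the consensus of GATA factors, a family of zinc finger proteins that includes the main regulators of intestinal genes.

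The sequences below are 101 bp windows of ce11 centred on pooled summits. They are the leading regions of 7 of the 8 filament genes with a pooled region, with a further intronic region of ifb-2. The leading window of ifc-2, which held no WGATAR site, is not printed. Every window shown for an intestinal gene therefore holds a site. The windows are read 5′ to 3′ on the plus strand, with every WGATAR site of either strand in capitals. A site printed TTATCA is TGATAA on the minus strand. They lie, in order, at chrII:5748564-5748664, chrII:5751446-5751546, chrX:8824569-8824669, chrV:2880432-2880532, chrX:9679525-9679625, chrX:816045-816145, chrII:5769075-5769175 and chrX:4917879-4917979.
ifb-2 upstream: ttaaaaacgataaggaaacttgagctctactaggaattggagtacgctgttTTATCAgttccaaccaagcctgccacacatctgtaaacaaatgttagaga
ifb-2 intron: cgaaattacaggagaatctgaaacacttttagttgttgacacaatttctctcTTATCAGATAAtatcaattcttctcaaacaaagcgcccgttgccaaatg
ifd-1 upstream: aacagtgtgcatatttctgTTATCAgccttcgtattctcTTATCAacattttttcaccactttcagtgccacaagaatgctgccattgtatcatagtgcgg
ifc-1 upstream: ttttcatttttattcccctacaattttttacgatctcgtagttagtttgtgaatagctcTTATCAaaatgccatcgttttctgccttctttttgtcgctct
ifp-1 intron: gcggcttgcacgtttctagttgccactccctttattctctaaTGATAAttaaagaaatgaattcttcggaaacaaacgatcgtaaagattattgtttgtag
ifd-2 upstream: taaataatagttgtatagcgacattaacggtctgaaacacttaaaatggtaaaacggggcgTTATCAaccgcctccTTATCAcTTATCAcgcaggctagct
ifb-1 coding exon: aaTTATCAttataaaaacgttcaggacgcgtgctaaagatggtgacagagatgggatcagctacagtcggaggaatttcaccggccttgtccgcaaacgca
ifa-4 upstream: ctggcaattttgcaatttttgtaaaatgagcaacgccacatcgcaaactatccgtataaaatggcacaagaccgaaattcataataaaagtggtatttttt

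The signal at the filament genes was highest at ifb-2 and ifd-1, both genes of intestinal chains. All 6 intestinal filament genes had a pooled region, and 2 of the 4 others did, ifb-1 and ifa-4. Together 8 of the 10 had one, against 40.2% of all nuclear protein-coding genes. The windows of the members, from 4076 bp at ifd-2 to 14749 bp at ifc-2, are longer than the median window of 4182 bp over all genes in all but 1 case. Among the 10003 genes with windows in the members' range the share with a pooled region was 46.1%. On chromosome X, which carries 7 of the members, 5 of the 7 had a pooled region, against 50.6% of X-linked genes. The members held 2.98 pooled regions per 10 kb of window, namely 3.40 at the intestinal genes and 2.32 at the others, against 1.07 over the windows of all genes.

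**Figure D1:**
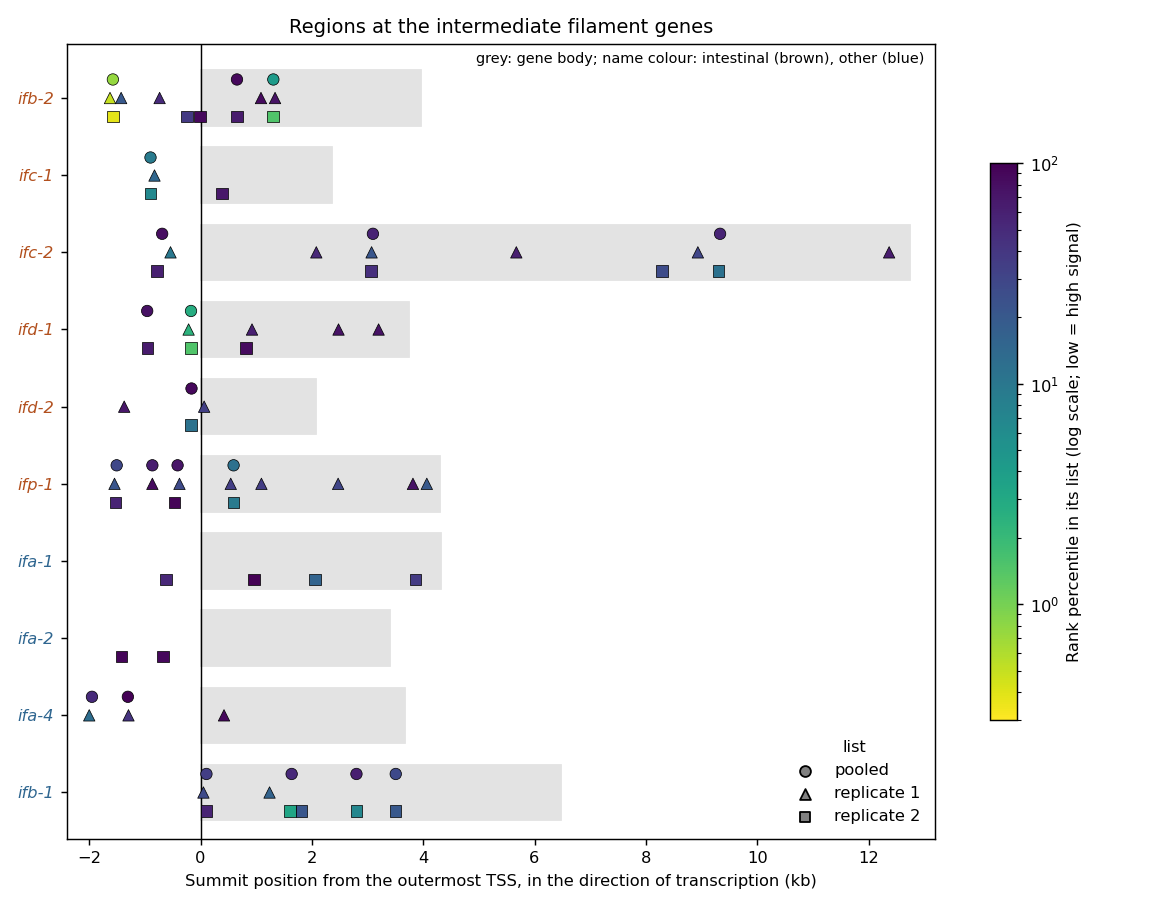
Position of every region summit at the 10 filament genes (x axis, kb from the outermost TSS in the direction of transcription), with the gene body in grey, a lane for each list (circles pooled, triangles replicate 1, squares replicate 2) and colour for the rank percentile on a log scale. The lightest symbols, with the highest signal for their list, are those upstream of ifb-2; ifa-1 and ifa-2 carry symbols of replicate 2 alone.

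The gene ifb-2, for the B-type chain of the endotube (WBGene00002054, chrII:5750188-5754140, plus strand), had the single thresholded peak of the family. That is 1 of 10 members, against 1.71% of all genes. The peak spanned chrII:5748454-5748773, 1574 bp upstream of the TSS, in no annotated gene, and ifb-2 had the nearest protein-coding TSS. Its pooled signal was 56.05, rank 87 (0.749%). It ranked 141 in replicate 1, with a signal of 20.5, and 91 in replicate 2, with a signal of 35.1. The region thus stood in the first percent of the pooled list and of both replicate lists. With a reach of 1000 bp around the TSS, however, it would not be assigned and 0 members would have a thresholded peak. A TGATAA site lay 4 bp from the pooled summit. The summit of replicate 2 was at the same base, while that of replicate 1 was offset by -52 bp, toward lower coordinates, where no WGATAR site fell within 50 bp.

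A further pooled region of ifb-2 lay in an intron, at chrII:5751336-5751655, 1296 bp downstream of the TSS, with a signal of 32.6 and rank 493. Here the replicates were far apart, with rank 353 and a signal of 24.7 in replicate 2 against rank 21011 and a signal of 5.02 in replicate 1. The window printed above holds TGATAA on the minus strand and AGATAA on the plus strand, overlapping by 1 base, the nearer 5 bp from the summit. The other pooled region of ifb-2, 643 bp downstream of the TSS, had a signal of 13.95, rank 10357, and no site.

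The gene ifd-1, for a D-type chain (WBGene00002057, chrX:8820703-8824448, minus strand), missed the thresholded list narrowly. Its leading region, chrX:8824459-8824778, was centred 171 bp upstream of the only TSS and had a pooled signal of 38.0, rank 311. The lowest signal in the thresholded list was 38.2, and the ifd-1 region stood 8 places below that limit when mitochondrial regions were counted. In the replicates it ranked 680 (signal 13.7) and 352 (signal 24.7). The order of this region was therefore alike in both libraries, at 2.41% and 1.47% of the lists. Its window held 2 TGATAA sites, the nearer 8 bp from the pooled summit. The summit of replicate 1 lay 43 bp away, and no WGATAR site fell within 50 bp of it. A weaker pooled region 958 bp upstream had a signal of 14.55, rank 9016, no site and no counterpart in replicate 1.

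The leading regions of ifc-1, a C-type chain gene, and ifp-1, the P-type chain gene, stood at 9.19% and 11.8% of the pooled list, and each held 1 TGATAA site. For ifc-1 (WBGene00002055, chrV:2881393-2883753, plus strand) the only pooled region lay at chrV:2880322-2880641, 911 bp upstream, with a signal of 25.4 and rank 1067. It ranked 4148 in replicate 1 and 1565 in replicate 2, with signals of 8.97 and 16.3. The TSS of str-39, a gene named as a seven-transmembrane receptor, was nearer to this summit, at 581 bp. Which of the genes the region belongs to cannot be told from its position.

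For ifp-1 (WBGene00002067, chrX:9675873-9680169, minus strand) the leading pooled region lay in an intron, at chrX:9679415-9679734, 594 bp downstream of the TSS, with a signal of 23.8 and rank 1364. It ranked 2220 in replicate 2, where it was also the leading region of the gene (signal 14.9). In replicate 1 it ranked 9753 (signal 6.95), and the leading region was another, in a coding exon 4065 bp downstream of the TSS (signal 8.24, rank 5661). The other 3 pooled regions of ifp-1, 412 to 1506 bp upstream, ranked from 3284 to 8335, and 1 of them held a site, AGATAG, 43 bp from the summit.

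The pooled regions of ifc-2 and ifd-2 were weak, and both genes had better rank percentiles in the replicate lists, which hold more regions. The gene ifc-2, for a C-type chain that is a main component of the endotube (WBGene00002056, chrX:642156-654904, minus strand), is the longest of the family, with 7 annotated TSSs. Its 3 pooled regions had signals of 14.4 to 15.96 and ranks from 6492 to 9361. The first was in a coding exon, the second in an intron and the third 689 bp upstream of the gene, where the TSS of the lipocalin-related gene lpr-7 was nearer, at 591 bp. Only the intronic region held a site, 35 bp from the summit. The leading region of ifc-2 differed between the replicates. In replicate 1 it was the upstream one, with a signal of 9.94 and rank 2742 (9.74%). In replicate 2 it was the one in the coding exon, with a signal of 14.2 and rank 2745 (11.5%). For ifd-2, the other D-type gene (WBGene00002058, chrX:813854-815929, minus strand), the single pooled region was centred 166 bp upstream of the TSS, with a signal of 14.0 and rank 10176. Its window held 3 TGATAA sites, and 2.78% of all nuclear pooled regions held at least 3 WGATAR sites. Overlapping regions stood at rank 2696 in replicate 2 (11.3%, signal 14.3) and 9644 in replicate 1 (34.25%, signal 6.98), against 87.7% in the pooled list. The pooled list holds 11608 nuclear regions and replicate 1 28158, so that a like rank is a higher percentile in the pooled list. The replicate 1 summit was offset by -231 bp, toward lower coordinates, in a coding exon 65 bp downstream of the TSS. No site fell within 50 bp of it.

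Of the filament genes that act outside the endotube, ifb-1 had the most regions in the pooled list (4) and in replicate 2 (5), while in replicate 1 it had 2 and ifa-4 had 3. The gene ifb-1, for the B-type partner of the A-type chains (WBGene00002053, chrII:5765618-5772084, plus strand), lies on the same chromosome as ifb-2. Its leading pooled region, chrII:5768965-5769284, was in a coding exon 180 bp downstream of the inner TSS, with a signal of 19.1 and rank 3212. It was absent from replicate 1 and ranked 4948 in replicate 2 (signal 12.3). The leading region differed between lists. In replicate 2 it was intronic, 1605 bp downstream of a TSS, with a signal of 19.6 and rank 787. In replicate 1 it was another intronic region with a signal of 8.75 and rank 4570. Of the 4 pooled regions of ifb-1, 1 was found in both replicates, the one in a coding exon 106 bp downstream of the outer TSS (pooled signal 18.0, rank 4055), and it had no site.

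Of the A-type genes only ifa-4 had a pooled region, and each had regions in 1 replicate alone. The gene ifa-4 (WBGene00002052, chrX:4912308-4915979, minus strand) had 2 pooled regions, 1950 and 1305 bp upstream, with signals of 16.5 and 13.6 and ranks 5751 and 11308. It had 3 regions in replicate 1, the best at rank 3575 (12.7%), and 0 in replicate 2. The gene ifa-1 (WBGene00002050, chrX:11271182-11275498, plus strand) had 0 pooled regions and 0 in replicate 1, against 4 in replicate 2. The best of these had a signal of 13.1 at rank 3780 (15.8%). The nearest pooled region of ifa-1 beyond the reach lay 4932 bp upstream (signal 21.85, rank 1860), with the TSS of C03A3.9 nearer. For ifa-2 (WBGene00003485, chrX:16262289-16265686, minus strand), needed for the attachment of muscle in larvae, there were 0 in the pooled list, 0 in replicate 1 and 2 in replicate 2, at ranks 21259 and 22156. These held 3 sites and 1 site.

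Set side by side, the leading signals of the intestinal and the other filament genes overlapped in the pooled list, with 4 intestinal genes at the top. The leading signals were 56.05, 38.0, 25.4, 23.8, 15.96 and 14.0 at ifb-2, ifd-1, ifc-1, ifp-1, ifc-2 and ifd-2, and 19.1 and 16.5 at ifb-1 and ifa-4. The genes ifc-2 and ifd-2 lay below both of the latter. With a gene without a region entered at the lowest signal of the list, 13.5, the median was 24.6 for the intestinal genes and at most 14.98 for the others, a ratio of at least 1.64. In the same way the median rank percentile was 10.5% for the intestinal genes and 74.8% for the others with absent genes entered at 100%. Over the 8021 genes with a pooled region the median leading percentile was 41.6%, and the 2 others with a region, ifb-1 and ifa-4, stood at 27.7% and 49.5%. Genes are not replicates, and no test was applied to this contrast. By nearest TSS alone, which removes the only region of ifc-1, the median percentile of the intestinal genes was 33.8%. That of the others was 36.7% with a reach of 5000 bp, 47.6% where any base of a region could fall in the window and 100% with a reach of 1000 bp, so that it depended on how far regions were counted.

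The same order was looked up pair by pair in each list. With a gene without a region placed last, the intestinal gene stood ahead in 20 of the 24 pairs of an intestinal with another filament gene in the pooled list, 19 in replicate 1 and 20 in replicate 2. Where both genes had a region, it stood ahead in 8 of 12 pairs, 7 of 12 and 14 of 18. In replicate 1, 8 of the 10 members had a region, where 70.8% of all genes did, and in replicate 2 it was 9, where 65.5% did. Most genes of the genome thus had a region in either replicate list. At the intestinal genes the density was 6.31 regions per 10 kb of window in replicate 1 and 4.37 in replicate 2, and at the others 1.93 and 4.25, against 2.69 and 2.28 over all gene windows. The others lay below the density of all gene windows in replicate 1 and above it in replicate 2. Among the first 1000 pooled regions, the members were ifb-2 and ifd-1, 2 of 10, against 5.17% of all genes.

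**Figure D2:**
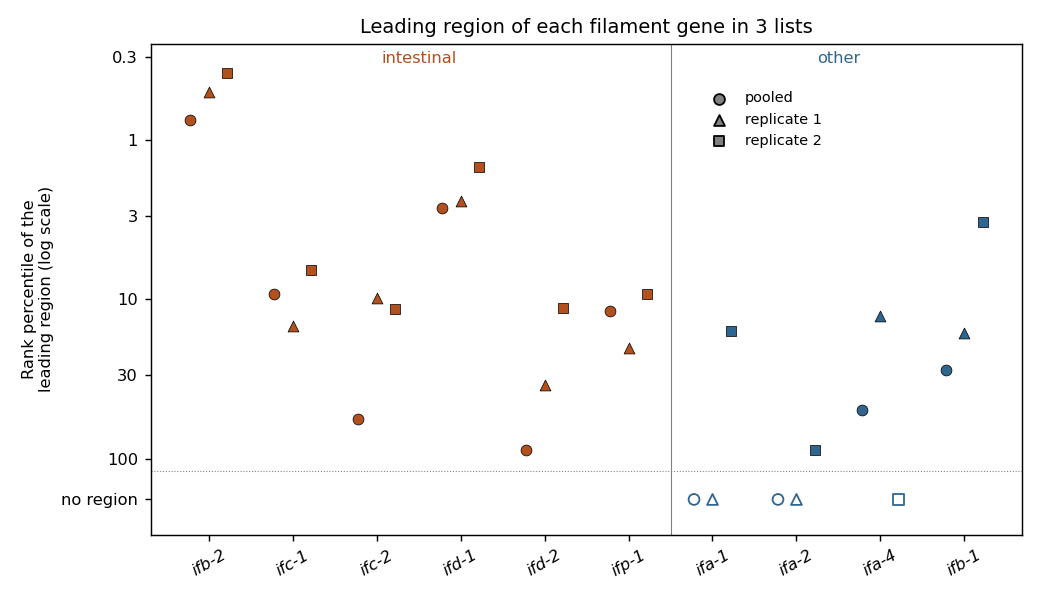
Rank percentile of the leading region of each filament gene (y axis, log scale, high signal at the top) in the pooled list (circles), replicate 1 (triangles) and replicate 2 (squares); open symbols stand for no region. ifb-2 and ifd-1 stay within the first 3% in each list, ifb-1 reaches 3.29% in replicate 2 alone, and ifa-1, ifa-2 and ifa-4 each lack a region in at least 1 list.

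The leading regions of ifb-2 and ifd-1 were found in both replicates, and most regions of the A-type genes and ifb-1 in 1 alone. Of the 14 pooled regions at intestinal filament genes, 10 were overlapped by a region in both replicates, and of the 6 at the others 1 was. Over both groups it was 11 of 20, against 53.6% of all nuclear pooled regions. The difference between the groups was not tested, since regions of a gene are not replicates. The leading pooled region was overlapped by the leading one of both replicates at 4 of the 6 intestinal genes, ifb-2, ifc-1, ifd-1 and ifd-2. Of the 2 others with a pooled region, this held at 0. At ifd-2 the replicate 1 summit was offset by -231 bp from the pooled one. The upstream peak of ifb-2 had a −log10 q of 1.35, a value not exceeded in the pooled list, where 1.30 is a q of 0.05. The −log10 q of the remaining member regions reached 1.28 at ifd-1 and 1.14 at the intron of ifb-2. The share of all pooled regions above 1.30 was not counted.

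**Figure D3:**
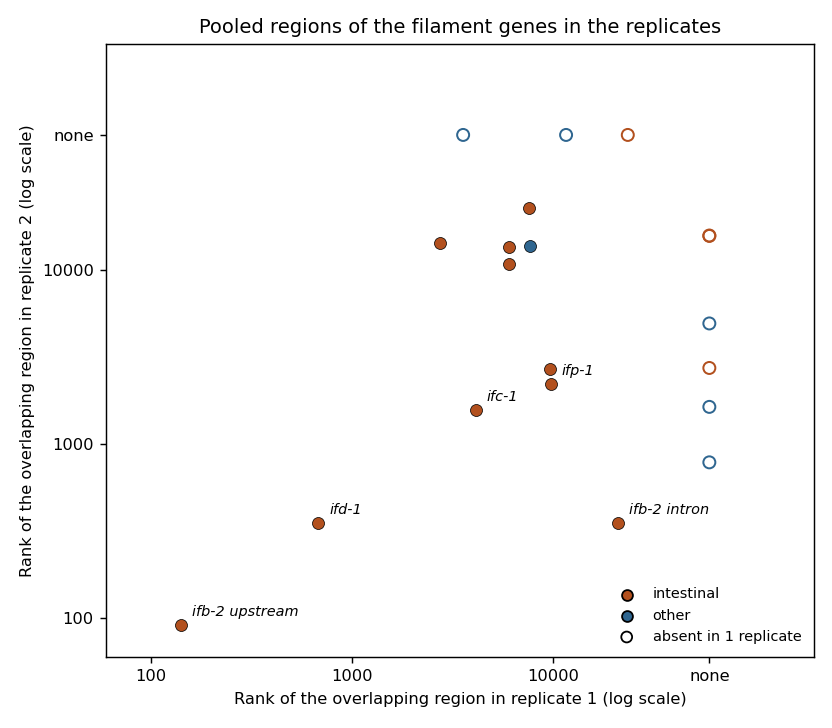
Each of the 20 pooled regions at the filament genes by the rank of its overlapping region in replicate 1 (x axis) and replicate 2 (y axis), both on log scales; open circles have no counterpart in 1 replicate. The upstream region of ifb-2 and that of ifd-1 lie at the lower left, with ranks of 141 and 91 and of 680 and 352, and the intronic region of ifb-2 ranks 353 in replicate 2 and 21011 in replicate 1.

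WGATAR sites were found within 50 bp of the summit at 11 of the 20 pooled regions of the filament genes (55.0%), against 32.0% of all nuclear pooled regions. By gene, 8 of the 10 members had a pooled region with a site, against 16.8% of all genes and 19.2% of those with windows of the members' length. The 8 are all the members that had any pooled region. Among all genes with a pooled region, 3361 of 8021 had one with a site, and 1917 of 4612 among those with windows of the members' length. The shares of 16.8% and 19.2% thus also reflect genes without any region. By group, 8 of 14 regions at the intestinal genes had a site (57.1%, exact Clopper-Pearson 95% interval 28.9 to 82.3) and 3 of 6 at the others (50%, 11.8 to 88.2). The intervals cover counting error over regions only, and regions of a gene are not independent. The difference between the groups was not tested. The shares depended on the library. In replicate 1 a site was in 34.6% of the regions at the intestinal genes and 20.0% at the others, against 24.99% of all its nuclear regions, and in replicate 2 in 66.7% and 36.4%, against 26.9%.

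The sites found within 50 bp of the leading summits of the intestinal genes differed between the replicates. In the pooled list the leading region of 5 of the 6 intestinal genes held a site, all but ifc-2, and at 1 of the 2 others, ifb-1, where the site lay 45 bp from the summit. Over all genes with a pooled region 35.2% of the leading regions held one. Distances from the pooled summit at the 5 intestinal leading regions ran from 4 bp at ifb-2 to 14 bp at ifd-2. In replicate 1 the leading region held a site at 2 of the 6 intestinal genes, ifc-1 and ifp-1, at 31 and 37 bp from the summit, against 27.2% over all genes with a region. In replicate 2 it did at 6 of 6, at 4 to 42 bp, against 29.7%. The closeness of sites to the summit was thus not found in replicate 1. At ifb-2 and ifd-1 the replicate 1 summits were offset by -52 and 43 bp from the pooled ones. The TGATAA sites of those pooled windows thereby lay outside the 50 bp searched or were cut by its edge. The heptamer TGATAAG, a longer form of the site searched on both strands, was in 4 of the 14 intestinal regions and in 0 of the 6 others, against 8.27% of all nuclear pooled regions. Of the 12 sites at intestinal regions 10 were TGATAA, and of the 3 at the others 2 were, while TGATAA made up 59.0% of the sites in all nuclear pooled regions and 67.8% in the first 1000.

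Sites follow rank in this list, and the members' regions were also read within rank classes. All 3 member regions within the first 500, at ifb-2 and ifd-1, held a site, where 89.0% of the first 100 regions and 85.5% of the next 400 did. From rank 1001 to 5000 a site was in 3 of 5 member regions (33.8% of all), from 5001 to 10000 in 3 of 9 (25.5% of all), and beyond in 2 of 3 (22.4% of all). Sites at the strongest members were thus as frequent as at other regions of that rank. The high share at weaker ranks rests on few regions, and the role of rank in the overall share was not tested.

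**Figure D4:**
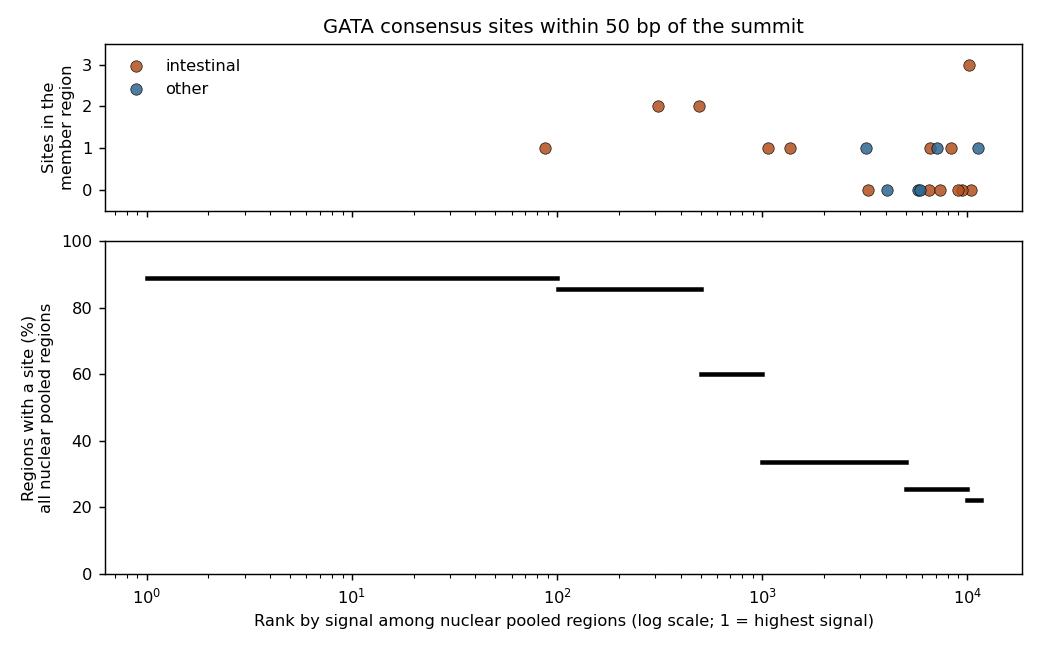
Upper panel, number of WGATAR sites within 50 bp of the summit in each of the 20 pooled regions of the filament genes, by rank (x axis, log scale); lower panel, percentage of all nuclear pooled regions with a site in 6 rank classes. The 5 member regions of best rank each hold at least 1 site, and the ifd-2 region at rank 10176 holds 3.

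Genes taken as partners of each kind of filament were looked up by the same rule. Whether their products act with that kind alone was not examined. The partners of the intestinal filaments were ifo-1 (a filament organizer), bbln-1 (a coiled-coil protein of the endotube), sma-5 (a MAP kinase), act-5 (the actin of microvilli), erm-1 (ezrin-radixin-moesin), eps-8 (a microvillus actin-capping protein), and the junction genes dlg-1, ajm-1 and let-413. Of these 9, 8 had a pooled region, against 40.2% of all genes, and 0 a thresholded peak, against 1.71%. Within the first 1000 regions 4 had one, against 5.17% of all genes. The median window of these partners was 7930 bp, against 4182 bp over all genes, and eps-8 held 12 pooled regions in 23170 bp. No share was taken over genes with windows as long as the partners'. The highest signal was 33.2 at erm-1, rank 462, 3446 bp downstream of its TSS and nearer to the TSS of dnj-4. Next came eps-8 with 32.9 (rank 473), act-5 with 27.7 (rank 817), 1973 bp upstream and nearer to shpk-1, and bbln-1 with 27.5 (rank 838). At 7 of the 8 genes with a pooled region the leading one held a WGATAR site, the exception being erm-1. That of ifo-1 was nearer to the TSS of sqst-2. Over all genes with a pooled region it was 35.2%. The partners' leading regions ranked from 462 to 2583. Of all nuclear pooled regions a site was in 85.5% from rank 101 to 500, 60.2% from 501 to 1000 and 33.8% from 1001 to 5000. The role of rank in the partners' share was not tested.

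The fibrous organelle genes were vab-10 (a spectraplakin), let-805 (myotactin), mup-4 and mua-3 (transmembrane proteins of the apical side), vab-19 (a Kank-family protein) and pat-12. Of these 6, 5 had a pooled region, against 40.2% of all genes. There were 0 thresholded peaks and 0 regions within the first 1000, against 1.71% and 5.17% of all genes. With 6 genes, counts of 0 are near those shares. A site was in 0 of the leading regions, against 35.2% over all genes with a pooled region. These leading regions ranked from 2853 to 11124. In the rank classes that hold them, from 33.8% down to 22.4% of all regions had a site. The highest signal was 19.6 at vab-19, rank 2853. The median window of the fibrous organelle genes was 24932 bp, against 7930 bp for the intestinal partners. The ranges overlapped, at 9669 to 59568 bp and 4001 to 32674 bp. The fibrous organelle genes held 0.507 pooled regions per 10 kb and the intestinal partners 3.51, against 1.07 over the windows of all genes. The remaining intermediate filament genes of the species, ifa-3 and the nuclear lamin gene lmn-1, had 0 pooled regions, and ifa-3 had 2 regions in replicate 1 alone, the better at rank 11720.

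**Figure D5:**
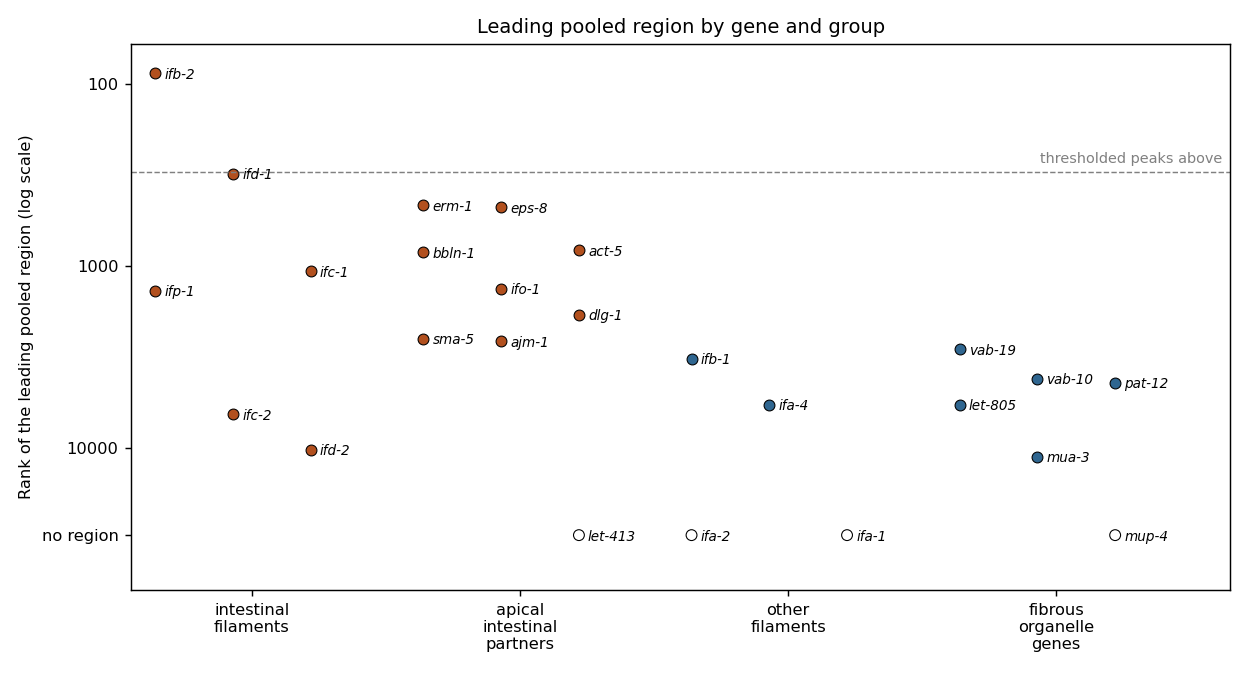
Rank of the leading pooled region (y axis, log scale, high signal at the top) for the intestinal filament genes, the intestinal partner genes, the other filament genes and the fibrous organelle genes; open circles have no pooled region and the dashed line marks the end of the thresholded list. ifb-2 alone lies above the line, with ifd-1 just beneath it at rank 311, and the fibrous organelle genes begin at rank 2853.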

How the data were processed

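The authors' deposited lists of regions were used, 1 for each of 2 biological replicates, 1 pooled and 1 thresholded by irreproducible discovery rate. Their signal was made by the authors from library alignments and a control, per the deposited file notes. The -log10 q value is the authors' as well, and was at most 1.35 in the pooled list. The aligner, peak caller and threshold are not given in the sources used here. The files' build is ce11, and names and positions came from Ensembl release 115 and sequence from the RefSeq genome of the same assembly. In the pooled list 99.9% of nuclear regions were 320 bp wide. The thresholded list was checked to be the 328 regions of highest signal among the 11633 pooled ones, mitochondrial ones included.

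Regions were assigned by summit. Sites were searched on both strands within 50 bp, and overlaps between lists needed 1 bp. Python 3.11.15, numpy 2.4.6 and pandas 2.3.3 were used, and assignment and site search were tested on planted data. The members, partner lists and settings were chosen with earlier results of these data known, and no test was made across genes. Named genes were all members, the gene with the nearest TSS to a described region, and partners with a thresholded peak or the highest signal of their list; eps-8, act-5, bbln-1, ifa-3 and the gene nearest to the region beyond the reach of ifa-1 were named after their values were seen. Alternatives were other reaches and assignments, separate replicate lists, other site windows and overlaps, and the ce10 lists.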

Additional observations from a re-analysis of the deposited data

How the results depend on the processing

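Of 66 recomputed values, 45 stayed within 1.5 times (counts), within 1 SD between the replicate lists (medians) or within the binomial interval (shares). Values on ce10 had a closer limit. This tally does not measure stability. The share intervals are wide, at 28.9 to 82.3% and 11.8 to 88.2%. All pooled member summits lay within 2000 bp of a TSS, so that leaving out gene bodies could not change pooled values. The SD rests on 2 replicate values that were themselves among those judged. The number of members with a pooled region was 7 to 10 under other reaches and assignments and 8 to 9 in the replicate lists, but 2 among the first 1000 regions. The number with a thresholded peak was 0 with a reach of 1000 bp, 2 with the first 1000 pooled regions in place of the threshold, and 1 otherwise, also by either replicate's leading regions. The ratio of median leading signals was 1.82 with a reach of 1000 bp, 1.37 with 5000 bp, 1.47 with any base of a region and 1.33 by nearest TSS. It was 1.46 to 1.51 in the replicate lists, and 1.0 in the first 1000 regions, where the median gene of both groups had none. The median percentile of the intestinal genes was 33.8% by nearest TSS and 100% in the first 1000 regions, against 7.90% to 12.2% in the replicate lists. That of the others was 100% with a reach of 1000 bp and in the first 1000 regions, 36.7% with 5000 bp, 47.6% with any base, and 52.3% to 58.1% in the replicate lists. The share of regions with a site at intestinal genes was 100% in the first 1000 regions and 28.6% for TGATAAG; at the others TGATAAG gave 0%, and in the first 1000 regions there was none to count. It was 34.6% to 66.7% and 20.0% to 36.4% in the replicate lists. Regions found in both replicates numbered 9 or 10 under stricter overlap. On ce10 the ifb-2 peak kept its rank of 87. Changes under fewer regions or other reaches follow from which regions are counted; other causes were not tested. Unknown depth limits all values to ranks and the authors' signal. No paired analysis was possible because the series has a single group.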
